A study of Mus musculus and Rattus norvegicus with 12 samples.

Results

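The 10 genes described here, Prrx1, Ogn, Dcn, Lum, Thy1, Pdgfrb, Fmod, Prelp, Twist1 and Twist2, are genes by which fibroblasts are recognised, and they were taken by symbol from the gene count tables of 12 embryo-derived lines. All 10 had a row among the 24411 genes of the mouse tables and among the 17315 genes of the rat tables. Mouse lines all came from ICR blastocysts: 3 XEN lines (XEN1, XEN2 and XEN5), 3 pXEN lines (pXEN2, pXEN4 and pXEN6) and 2 embryonic stem (ES) lines (ES2 and ES3). The 4 rat lines, called XENP, were CX1 and MAX8 of the WKY strain and MAX2 and MAX3 of the F344 strain. XEN cells are stem cells of extraembryonic endoderm, the blastocyst layer that forms the yolk sac. XEN lines were grown on a layer of mouse embryo fibroblasts with 20% serum. The ES medium held 15% serum, the cytokine LIF and the inhibitor mix called 2i. One cited protocol served pXEN and rat XENP lines. All were sampled after 2 days of culture. The feeder layer is named for XEN alone, and the labels do not say whether its cells were removed before RNA was taken, nor whether the ES, pXEN or XENP lines had feeders. Whether feeder use differed between XEN and the other groups is thus unknown, culture protocol and cell type changed together, and RNA of feeder fibroblasts and RNA of XEN cells cannot be told apart in these libraries. In such bulk RNA, fewer cells of a type and less RNA per cell cannot be told apart either. Each line was 1 library, so the spread given is the spread between separately derived lines.

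Fibroblasts are the matrix-making cells of connective tissue. Prrx1 is a homeodomain factor of limb and craniofacial mesenchyme, and Twist1 and Twist2 are basic helix-loop-helix factors that mark mesenchyme and bind E-box sequences with partner proteins. Pdgfrb is a receptor for platelet-derived growth factor on fibroblasts and pericytes, and Thy1 is a surface glycoprotein of fibroblasts that other cell types carry too. Ogn (osteoglycin), Dcn (decorin), Lum (lumican), Fmod (fibromodulin) and Prelp are small leucine-rich proteoglycans or related proteins, secreted proteins that bind collagen fibrils and shape their growth.

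Gene counts summed to between 2661691 and 3483069 in a mouse library and between 1047535 and 1242937 in a rat one. The endoderm label held in the mouse lines, where all 10 genes of an endoderm list (Lama1, Sparc, Dab2 and Sox17 the most abundant) were called higher than ES in both XEN and pXEN and 0 of 10 were called between XEN and pXEN (0 at an unadjusted p under 0.05 by edgeR, 0 by DESeq2). Levels below are CPM, counts relative to the library total after scaling by edgeR's TMM method, and a gene is called when its adjusted p (edgeR's quasi-likelihood test, Benjamini-Hochberg over all 10895 mouse genes tested) is under 0.05. For a group with 0 counts the fold was bounded from below by setting that group to 3 counts in all, which is 0.299 CPM in pXEN and 0.600 CPM in ES.

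Most of the fibroblast genes had their highest mouse levels in the XEN libraries, while Thy1 and Twist1 were also read in ES and Fmod in the rat lines. Prrx1, Ogn, Dcn, Lum, Fmod and Prelp, 6 of the 10, had counts in every XEN line and 0 counts in all 5 pXEN and ES lines, a pattern that 0.655% of all mouse genes showed. For 8 of the 10 every XEN line lay above every pXEN and ES line, which held for 3.55% of all genes. The exceptions were Twist1, which was highest in ES, and Twist2, which had 0 counts in XEN1. Between XEN and pXEN, 7 of the 10 were called higher in XEN and 0 lower (0 lower also at an unadjusted p under 0.05 by edgeR and by DESeq2), where 3.63% of tested genes were called higher and 0.918% lower. Twist1 and Twist2 did not pass the filter on low counts, and the 6 genes with 0 counts outside XEN passed it through their XEN counts alone, so a difference was built into their being tested. All 7 genes called against pXEN had 0 counts there. Thy1, the one of them with counts in ES, did not pass the filter in a fit of pXEN and ES alone, so the limit covers its call too.

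**Figure D1:**
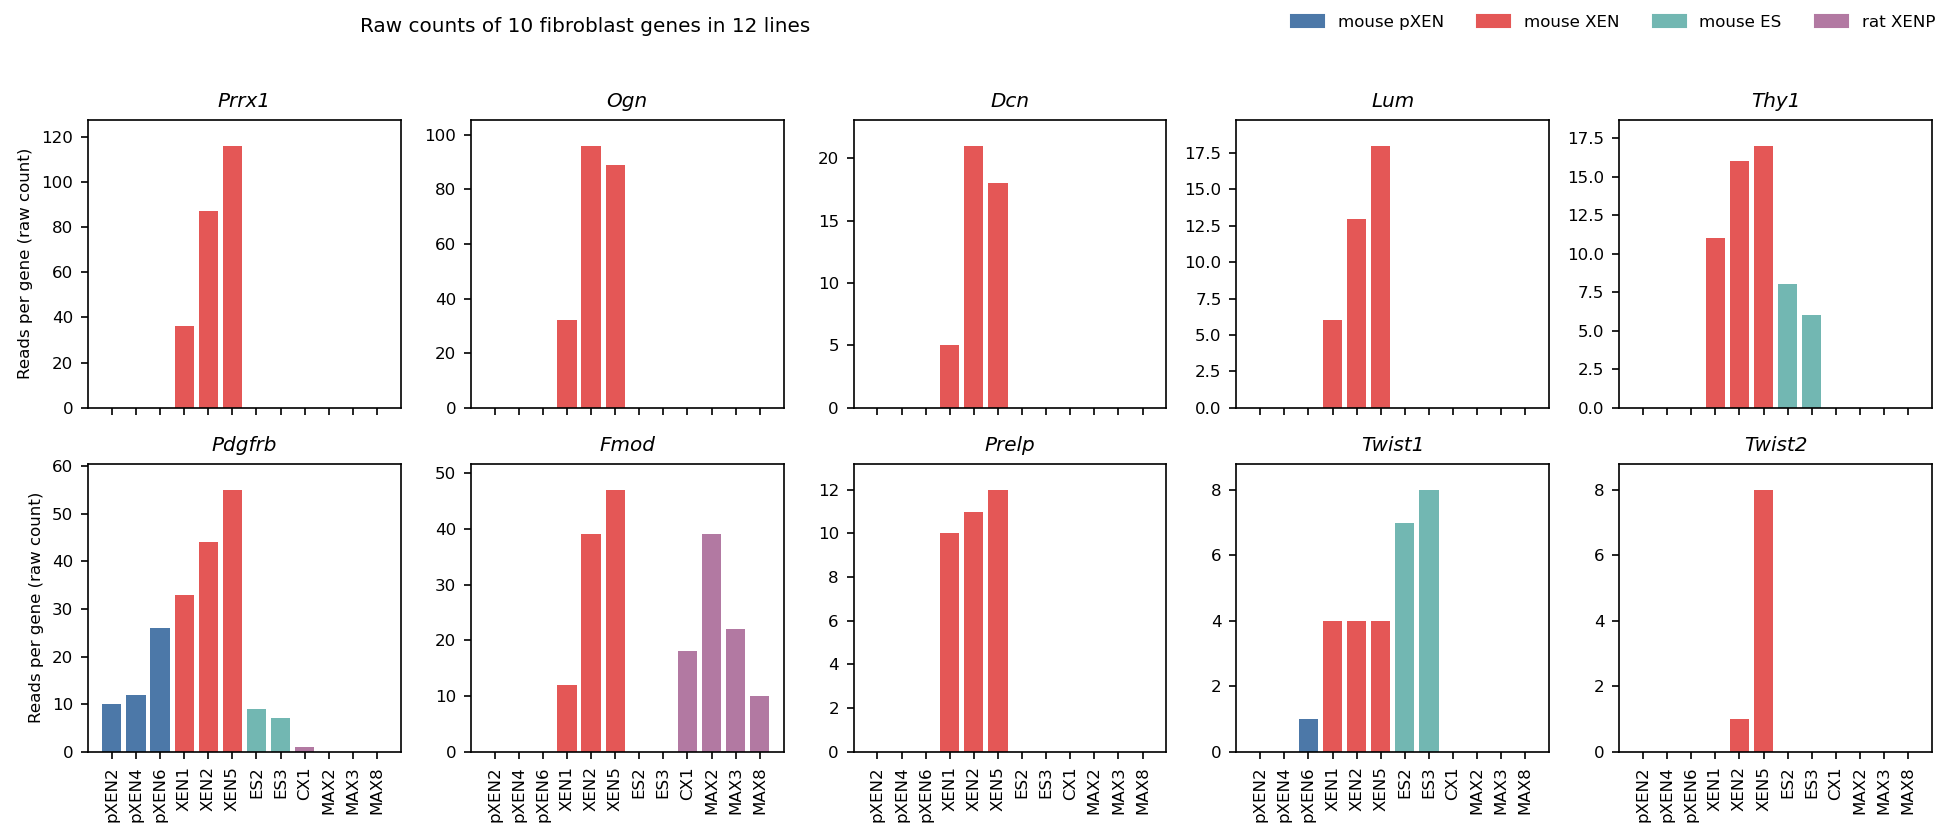
Raw read counts (y axis, starting at 0, scale set per gene) of the 10 genes in each of the 12 lines (x axis), coloured by group. Prrx1, Ogn, Dcn, Lum and Prelp have bars in the 3 XEN lines only, Fmod also in the 4 rat XENP lines, Thy1 also in ES, Twist1 also in ES and, with 1 count, in pXEN6, and Pdgfrb in all mouse lines and, with 1 count, in CX1. Twist2 has counts in XEN2 and XEN5 only.

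The DNA just upstream of 4 of these genes is shown for reference: Prrx1, Ogn and Fmod as the most abundant XEN genes with 0 counts in pXEN and ES, and Twist1 as the gene that was highest in ES. Each run is the 150 bases before the outermost annotated start, 5′ to 3′ on the gene's strand, from RefSeq's promoter table for GRCm38, which held 6 of the 10 genes. Capitals mark matches on either strand to TAATTA (a core that homeodomains bind), CANNTG (the E-box) or TATAAA (the TATA box core), none of which overlapped here.
Prrx1, chr1:163313711-163313860, minus strand: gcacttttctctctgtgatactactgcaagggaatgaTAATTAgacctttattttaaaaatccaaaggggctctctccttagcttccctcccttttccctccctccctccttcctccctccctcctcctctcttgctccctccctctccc
Ogn, chr13:49607865-49608014, plus strand: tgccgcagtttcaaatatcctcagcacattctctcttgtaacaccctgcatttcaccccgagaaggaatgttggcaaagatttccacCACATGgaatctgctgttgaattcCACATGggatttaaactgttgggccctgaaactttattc
Fmod, chr1:134037104-134037253, plus strand: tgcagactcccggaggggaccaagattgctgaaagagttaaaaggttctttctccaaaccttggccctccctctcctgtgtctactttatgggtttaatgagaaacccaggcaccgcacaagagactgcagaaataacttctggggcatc
Twist1, chr12:33957521-33957670, plus strand: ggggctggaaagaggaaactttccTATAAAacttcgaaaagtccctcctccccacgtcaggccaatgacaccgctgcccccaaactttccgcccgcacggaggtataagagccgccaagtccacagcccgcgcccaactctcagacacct
The Prrx1 run held 1 match to TAATTA, the Ogn run 2 E-boxes, both CACATG, the Twist1 run 1 match to TATAAA and the Fmod run none of the 3 motifs. Among 27025 promoter entries, the 150 bases before the start held TAATTA in 2.80%, an E-box in 47.4% and TATAAA in 8.08%. CpG dinucleotides numbered 0 upstream of Prrx1 and Prelp and 2 upstream of Ogn and Fmod, against 9 for Twist1 and 12 for Twist2, where the median entry had 4. These are counts of letters and do not show binding.

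Prrx1 was the most abundant of the transcription factors. Its gene lies on the minus strand of chromosome 1 (163245119 to 163313710, GRCm38, GENCODE vM21). It had 36 counts in XEN1, 87 in XEN2 and 116 in XEN5 and 0 in every other library, mouse or rat. That is 14.0, 24.2 and 30.6 CPM in the XEN lines, a mean of 23.0 ± 8.38 (SD, n = 3). Prrx1 was at least 80.4-fold higher in XEN than in pXEN (adjusted p = 0.000832) and at least 40.0-fold higher than in ES (adjusted p = 0.000383, edgeR's quasi-likelihood test). The XEN lines differed among themselves by 2.18-fold.

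The Twist genes did not follow Prrx1. Twist1 (chromosome 12, 33957671 to 33959829, plus strand) had 4 counts in each XEN line, 7 in ES2, 8 in ES3, 1 in pXEN6 and 0 in pXEN2 and pXEN4. Both ES lines lay above the 3 XEN lines, at 3.00 ± 0.169 CPM (SD, n = 2) against 1.24 ± 0.275 (SD, n = 3), and XEN lay above pXEN. The XEN to ES ratio of pooled counts was 0.402, with an exact 95% counting interval of 0.172 to 0.920. When all genes with a count were tested, Twist1 was called lower in pXEN than in ES by edgeR (adjusted p = 0.00575, with a log2 fold change of -4.39 and an SE of 1.15). In that test its adjusted p was 0.158 for XEN against pXEN and 0.332 for XEN against ES. Twist2 (chromosome 1, 91801461 to 91848028, plus strand) had 0 counts in XEN1, 1 in XEN2 and 8 in XEN5 and 0 in all other libraries. Its presence in XEN thus rests on XEN5, and without a filter it was not called against pXEN (adjusted p = 0.255) or ES (adjusted p = 0.175, edgeR).

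The surface proteins were also read outside XEN. Pdgfrb (chromosome 18, 61045150 to 61085061, plus strand) was read in every mouse line. Its counts were 33, 44 and 55 in XEN1, XEN2 and XEN5, 10, 12 and 26 in pXEN2, pXEN4 and pXEN6, and 9 and 7 in ES2 and ES3. The groups did not overlap between XEN, at 12.2 to 14.5 CPM, and pXEN, at 3.29 to 7.46 CPM. The difference from pXEN was not called (log2 fold change 1.47, SE 0.40, adjusted p = 0.0669, edgeR), but without pXEN6, the highest pXEN line, it was (log2 fold change 1.96, adjusted p = 0.0322). Against ES, Pdgfrb was 4.08-fold higher in XEN (log2 fold change 2.03, SE 0.50, adjusted p = 0.00835), and that call was lost without ES3 (adjusted p = 0.0679, edgeR). pXEN against ES gave a log2 fold change of 0.56 (SE 0.51, adjusted p = 0.419), with overlapping groups.

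Thy1 (chromosome 9, 44043384 to 44048579, plus strand) was the member whose XEN level varied least between lines. It had 11, 16 and 17 counts in XEN1, XEN2 and XEN5, which is 4.29, 4.45 and 4.49 CPM, 0 in the 3 pXEN lines, and 8 and 6 in ES2 and ES3. It was at least 14.8-fold higher in XEN than in pXEN (adjusted p = 0.00557, edgeR). ES cells carried Thy1 too, at 2.81 ± 0.673 CPM (SD, n = 2), below each XEN line. XEN against ES was not called (log2 fold change 0.64, SE 0.62, adjusted p = 0.437, edgeR). Thy1 was the single member called in pXEN against ES, where it was at least 9.37-fold lower in pXEN (adjusted p = 0.00242, edgeR). In that comparison 17.8% of tested genes were called lower and 18.2% higher, and 0 members were called higher (0 at an unadjusted p under 0.05 by edgeR, 0 by DESeq2). In a fit of pXEN and ES libraries alone Thy1 did not pass the low-count filter and could not be called.

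Among the matrix proteins Ogn was read most. Its gene lies on chromosome 13 (49608046 to 49624501, plus strand), inside the span of Cenpp, a centromere protein gene on the opposite strand. Ogn had 32 counts in XEN1, 96 in XEN2 and 89 in XEN5 and 0 in all other libraries, or 20.9 ± 7.46 CPM in XEN (SD, n = 3). The level was at least 73.0-fold higher in XEN than in pXEN (adjusted p = 0.00102) and at least 36.3-fold higher than in ES (adjusted p = 0.000461, edgeR). Reads on the opposite strand numbered 26 in XEN, 13 in pXEN and 15 in ES, so its absence outside XEN shows only in strand-specific counts. With unstranded counts Ogn was still called, but its log2 fold change went from 9.04 to 4.13 against pXEN and to 2.95 against ES (adjusted p = 0.00193 and 0.00357, edgeR).

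Fmod, Dcn, Lum and Prelp followed at lower levels. Fmod (chromosome 1, 134037254 to 134048277, plus strand) had 12, 39 and 47 counts in XEN1, XEN2 and XEN5 and 0 in pXEN and ES. It was at least 33.0-fold higher in XEN than in pXEN (adjusted p = 0.00549) and at least 16.4-fold higher than in ES (adjusted p = 0.0027, edgeR). Dcn (chromosome 10, 97479609 to 97518143, plus strand) had 5, 21 and 18 counts, and its neighbour Lum (97565128 to 97572703, plus strand) 6, 13 and 18. Prelp (chromosome 1, 133910304 to 133921414, minus strand) had 10, 11 and 12. None of the 3 had a count in pXEN or ES. The lower bounds against pXEN were 14.8-fold for Dcn, 12.4-fold for Lum and 11.1-fold for Prelp (adjusted p = 0.0184, 0.0184 and 0.0179, edgeR). Against ES they were 7.37-fold, 6.20-fold and 5.53-fold (adjusted p = 0.0107, 0.0107 and 0.0104, edgeR).

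These low counts left part of the calls dependent on 1 library. Without XEN1 or without XEN5 the Prelp call against pXEN was lost (adjusted p = 0.0534 and 0.0502, edgeR). Without XEN2 or without XEN5, Dcn and Lum no longer passed the low-count filter, so that 5 and 4 of the 10 were called against pXEN and 5 against ES. The same filter removed them from a fit of XEN and pXEN alone, where 5 were called. Against ES 7 of the 10 were called higher in XEN, Pdgfrb in place of Thy1, where 20.7% of tested genes were called higher. Without ES2 the calls of Dcn, Lum and Prelp against ES were lost and 4 of the 10 were left (adjusted p = 0.0622 to 0.0664, edgeR). Without ES3 these 3 and Pdgfrb were lost and 3 were left, Prrx1, Ogn and Fmod. The counts in pXEN and ES were 0 for Dcn, Lum and Prelp in all of these fits.

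Divided by the length of each gene's exons, the XEN levels gave another order. Ogn led at 8.14 ± 2.91 CPM per kb (SD, n = 3) and lay clear of the next, Fmod, at 2.82 ± 1.24. Pdgfrb (2.41 ± 0.217), Prrx1 (2.07 ± 0.757), Thy1 (1.47 ± 0.0361), Lum (1.46 ± 0.494), Prelp (0.934 ± 0.126), Twist1 (0.763 ± 0.169), Dcn (0.716 ± 0.344) and Twist2 (0.251 ± 0.362) came after it. From Fmod down, the line-to-line ranges of every pair of neighbours in this order overlapped, so their order is not resolved. In ES, Twist1 stood highest on this scale at 1.84 ± 0.104 CPM per kb, ahead of Thy1 at 0.940 ± 0.225 and Pdgfrb at 0.587 ± 0.126 (SD, n = 2).

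The 5 matrix proteins belong to a family whose genes sit in clusters, and within a cluster the members did not all rise together. On chromosome 10, Dcn and Lum had 44 and 37 counts over the XEN lines, while Kera, a corneal keratan sulfate proteoglycan, had 0 and Epyc, known from cartilage, 2. On chromosome 13, Ogn had 217 and Aspn (asporin) 108, while Omd between them had 5 and Ecm2 1. On chromosome 1, Fmod had 98 and Prelp 33, while Optc, known from the eye, had 0. Away from these clusters Bgn (biglycan, on the X chromosome), a close relative of decorin, had 79, 92 and 131 counts in XEN1, XEN2 and XEN5, against 3 over pXEN and 0 in ES. Of the 12 other family genes, 3 passed the low-count filter, and Bgn and Aspn were called higher in XEN than in pXEN (adjusted p = 0.000162 and 0.00886, edgeR). Among all tested genes 3.63% were called higher. Aspn had 0 counts in pXEN and ES and Bgn few, so neither was tested independently of its XEN counts. Tsku was not (log2 fold change 1.78, SE 0.60, adjusted p = 0.148). Kera, Epyc, Omd, Ecm2 and Optc were named after their values were seen, as the neighbours of the 5 genes.

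**Figure D2:**
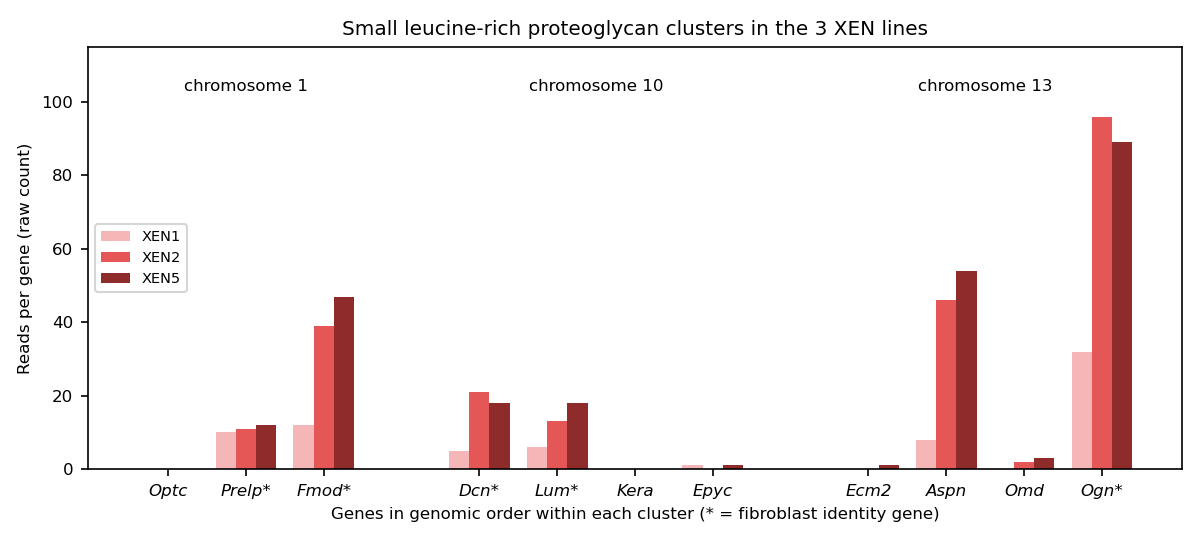
Raw read counts (y axis, starting at 0) of the small leucine-rich proteoglycan genes of 3 chromosomal clusters in XEN1, XEN2 and XEN5 (x axis, genes in genomic order, a star for those among the 10 genes). Ogn, Aspn, Fmod, Dcn, Lum and Prelp have counts in all 3 lines, and Optc and Kera have 0.

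Other fibroblast genes were mostly, but not all, higher in XEN. Of 29 further fibroblast genes 24 were tested, and 19 were called higher in XEN than in pXEN and 0 lower (0 lower also at an unadjusted p under 0.05 by edgeR and by DESeq2), beside 3.63% of all tested genes called higher. For 9 of the 19 pXEN had 0 counts, so that they too were not tested independently of their XEN counts. The other 10 had counts in pXEN, but few for most, such as 1 for Col1a1 and S100a4 and 7 for Col5a1. Passing the filter thus rested for most of these on counts outside pXEN as well. Col1a1, a chain of the main fibrillar collagen, had 92, 113 and 164 counts in XEN1, XEN2 and XEN5 against 1 in pXEN and 2 in ES (adjusted p = 5.91e-05 against pXEN, edgeR). The partner chain Col1a2 had 88, 125 and 185 against 0 in both groups and was at least 134-fold higher than in pXEN (adjusted p = 0.000156). S100a4, a calcium-binding protein long used as a fibroblast marker, stood at 31.3 ± 6.08 CPM (SD, n = 3) against 1 count in pXEN (adjusted p = 9.31e-05, edgeR). The fibrillar collagen chain Col5a1 was 37.5-fold higher (log2 fold change 5.23, SE 0.45, adjusted p = 0.000102, edgeR). In XEN against ES, 20 of the 24 were called higher, beside 20.7% of all tested genes, and Pcolce, named after its values were seen, lower. The 5 not called against pXEN, likewise named after their values were seen, were Fbln2, Gsn, Pdgfra, Ly6a and Gas1. Fbln2 had a log2 fold change of -0.60 (adjusted p = 0.660) and Gsn of -0.16 (adjusted p = 0.914, edgeR). For Ly6a it was 2.28 (adjusted p = 0.280) and for Gas1 1.89 (adjusted p = 0.254, edgeR). Fap, a protease of activated fibroblasts, had 0 counts in all 8 lines.

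The transcription factors and growth factors around the members split. Prrx2, the close relative of Prrx1, had 14, 16 and 15 counts in XEN1, XEN2 and XEN5, 0 in pXEN and 1 in ES, and was at least 15.1-fold higher than in pXEN (adjusted p = 0.00857, edgeR). Zeb2, a zinc finger factor of mesenchyme, was 17.6-fold higher (log2 fold change 4.14, SE 0.47, adjusted p = 0.000682) and Runx1 7.12-fold (adjusted p = 0.0319). These were the 3 called of 12 tested in a list of 22, beside 3.63% of all tested genes, and Prrx2 is also 1 of the 19 fibroblast genes above. All 3 had few counts outside XEN, so they too were not tested independently of their XEN counts. Id3, an inhibitor of helix-loop-helix factors, was not called (log2 fold change 2.17, SE 0.56, adjusted p = 0.0603, edgeR), though DESeq2 called it. In the PDGF list 1 of 4 tested genes was called higher than in pXEN, the ligand Pdgfc, at 3.36 ± 1.23 CPM in XEN (SD, n = 3) against 1 count in pXEN (adjusted p = 0.00733, edgeR). Pdgfc was higher still in ES, at 23.3 ± 5.63 CPM (SD, n = 2), and so was the ligand Pdgfa, at 29.0 ± 7.89 against 4.06 ± 1.94 in XEN. Both were called lower in XEN than in ES (adjusted p = 0.00139 and 0.000558, edgeR). The other PDGF receptor, Pdgfra, which endoderm carries as well, had 67.9 ± 15.0 CPM in XEN and 65.0 ± 8.62 with pXEN (SD, n = 3). Its log2 fold change was 0.06 (SE 0.24, adjusted p = 0.967, edgeR). The ligand Pdgfd stood at 4.47 ± 1.87 and 5.75 ± 3.92 CPM in XEN and pXEN (adjusted p = 0.867, edgeR).

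Markers of other cell types that a connective tissue culture could hold were counted in the same libraries. In the list for smooth muscle and mural cells, 4 of 7 tested genes were called higher in XEN than in pXEN: Acta2, Tagln, Cnn1 and Cspg4 (the last named after its values were seen). Among all tested genes 3.63% were called higher. Tagln had 30, 33 and 29 counts in pXEN2, pXEN4 and pXEN6. Acta2, Cnn1 and Cspg4 had few counts outside XEN, so they were not tested independently of their XEN counts. Acta2, the smooth muscle actin that cultured fibroblasts also make, had 491, 638 and 695 counts in XEN1, XEN2 and XEN5 against 2 to 10 in pXEN and at most 1 in ES. Against pXEN it was 113-fold higher (log2 fold change 6.82, SE 0.41, adjusted p = 1.37e-05, edgeR). Tagln was 17.4-fold and Cnn1 14.6-fold higher (adjusted p = 1.37e-05 and 0.00137, edgeR). Notch3 was not called (adjusted p = 0.242). The summed level of the 11 genes was 380 to 418 CPM in XEN, 12.2 to 24.7 in pXEN and 38.2 to 41.7 in ES, with no overlap between XEN and the rest. Pericyte markers were divided: Kcnj8 and Abcc9 were at 0 in all 8 lines, Rgs5 (like them named after its values were seen) had 5, 9 and 6 counts in XEN1, XEN2 and XEN5 and 0 in pXEN and ES, and Cspg4 had 18, 21 and 42 against 5 over pXEN and 0 in ES. The part of such cells in the fibroblast gene counts was not tested.

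Skeletal muscle and leukocyte genes were scarce in XEN. The 8 skeletal muscle genes summed to 2 to 3 counts per XEN line, with Myod1 at 0. The 8 leukocyte genes summed to 18 to 25, with Ptprc, which marks all leukocytes, at 0, 0 and 1 and Csf1r the highest of those named by rule at 13, 10 and 7 counts. In CPM the leukocyte sum was 4.76 to 9.74 in XEN, above 2.28 to 3.73 in pXEN and overlapping 5.76 to 6.24 in ES. Only 1 leukocyte gene was tested, and it was not called against pXEN. In the cartilage and bone list of 10 genes 2 were tested. Col2a1 was called, with 9, 15 and 18 counts in XEN1, XEN2 and XEN5 against 0 in pXEN (adjusted p = 0.00804, edgeR). With 0 counts in pXEN it was not tested independently of its XEN counts. Alpl (named after its values were seen) was not called against pXEN and was called lower in XEN than in ES. The list summed to 6.34 to 8.06 CPM in XEN, 0.285 to 0.861 in pXEN and 82.2 to 92.0 in ES. The ES sum was set by Alpl, with 194 of 200 counts in ES2 and 205 of 236 in ES3. The endothelial, nerve and adipocyte lists had 0 genes called in XEN against pXEN by edgeR. At an unadjusted p under 0.05 they had 1 endothelial gene, Cdh5, and 1 nerve gene, Ngfr, and DESeq2 called Ngfr alone. Among them Tek had 88.0 ± 35.4 CPM in XEN and 65.9 ± 35.4 in pXEN, Cdh5 59.3 ± 41.8 and 221 ± 145, and Tubb3 27.5 ± 7.73 and 82.3 ± 69.0 (SD, n = 3). Kdr, Vwf, Ngfr, Pparg and Lpl were each at 4.02 CPM or less in XEN. In the pluripotency list 3 of 8 genes, Zfp42, Pou5f1 and Dppa5a (named after their values were seen), were called lower in XEN than in pXEN.

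**Figure D3:**
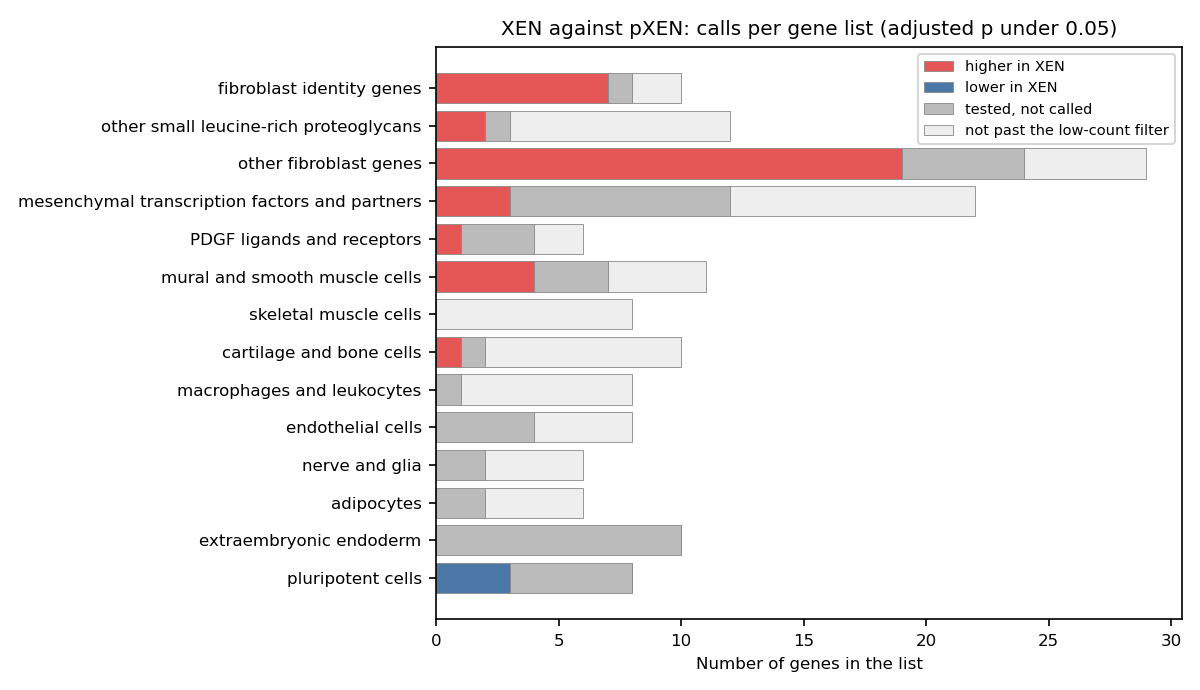
Number of genes per list (x axis, starting at 0) that were called higher or lower in XEN than in pXEN, tested without a call, or left out by the low-count filter. Calls for higher XEN levels fall in the fibroblast, proteoglycan, transcription factor, PDGF, smooth muscle and cartilage lists. They number 19 of 29 among the other fibroblast genes and 1 each in the PDGF and cartilage lists.

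The XEN lines did not hold the fibroblast genes in equal amounts. The 10 genes summed to 149 counts in XEN1, 332 in XEN2 and 384 in XEN5, or 58.1, 92.3 and 101 CPM. XEN1 was the lowest of the 3 lines for 7 of the 10, where it was lowest for 36.5% of tested genes with at least 1 CPM in XEN. The ratio of XEN1 to the other XEN lines was 0.369 for Dcn, 0.401 for Fmod, 0.498 for Ogn and 0.510 for Prrx1, and for these 4 the exact 95% counting interval lay below 1. For Lum it was 0.557, with an interval of 0.190 to 1.35. It was 0.959 for both Thy1 and Pdgfrb, 1.25 for Prelp and 1.44 for Twist1, and their intervals included 1. The median ratio over all tested genes at that level was 0.981. Thus the make-up of the set differed between lines, with Pdgfrb giving 22.1% of its counts in XEN1 and 13.3% and 14.3% in XEN2 and XEN5.

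Further fibroblast genes were mixed in this respect. Their 29 genes summed to 623 CPM in XEN1, 477 in XEN2 and 704 in XEN5, so that XEN1 was not the lowest line. That sum includes abundant genes not called against pXEN: Pdgfra, Fbln2 and Gsn, the last with 423, 207 and 527 counts in XEN1, XEN2 and XEN5. Of the 19 that were called higher in XEN than in pXEN, the interval for XEN1 lay below 1 for 7, included 1 for 10 and lay above 1 for 2, Fbn1 and Loxl1. Aspn was at 0.230 and Ddr2 at 0.364, while Col1a1 was at 0.955, Bgn at 1.02, Acta2 at 1.06 and Loxl1 at 1.86 (Ddr2, Fbn1 and Loxl1 named after their values were seen). XEN1 was a female line at passages 9 and 10. XEN2 and XEN5 were male lines at passages 20 and 21 and 19 and 21. The endoderm list summed to 7616 CPM in XEN1 against 4391 in XEN2 and 4793 in XEN5, a gap set by Lama1, since without it the sums were 2656, 2331 and 2385. Within that list the ratios of XEN1 to the mean of XEN2 and XEN5 went both ways. Lama1, Sparc and Pdgfra were at 2.22, 1.44 and 1.39. Dab2, Sox17 and Sox7 (Sox7 named after its values were seen) were at 0.738, 0.680 and 0.537. The part of passage or sex in the fibroblast gene ratios was not tested, and with 1 line at the lower passages they cannot be told apart. The intervals cover counting error only.

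**Figure D4:**
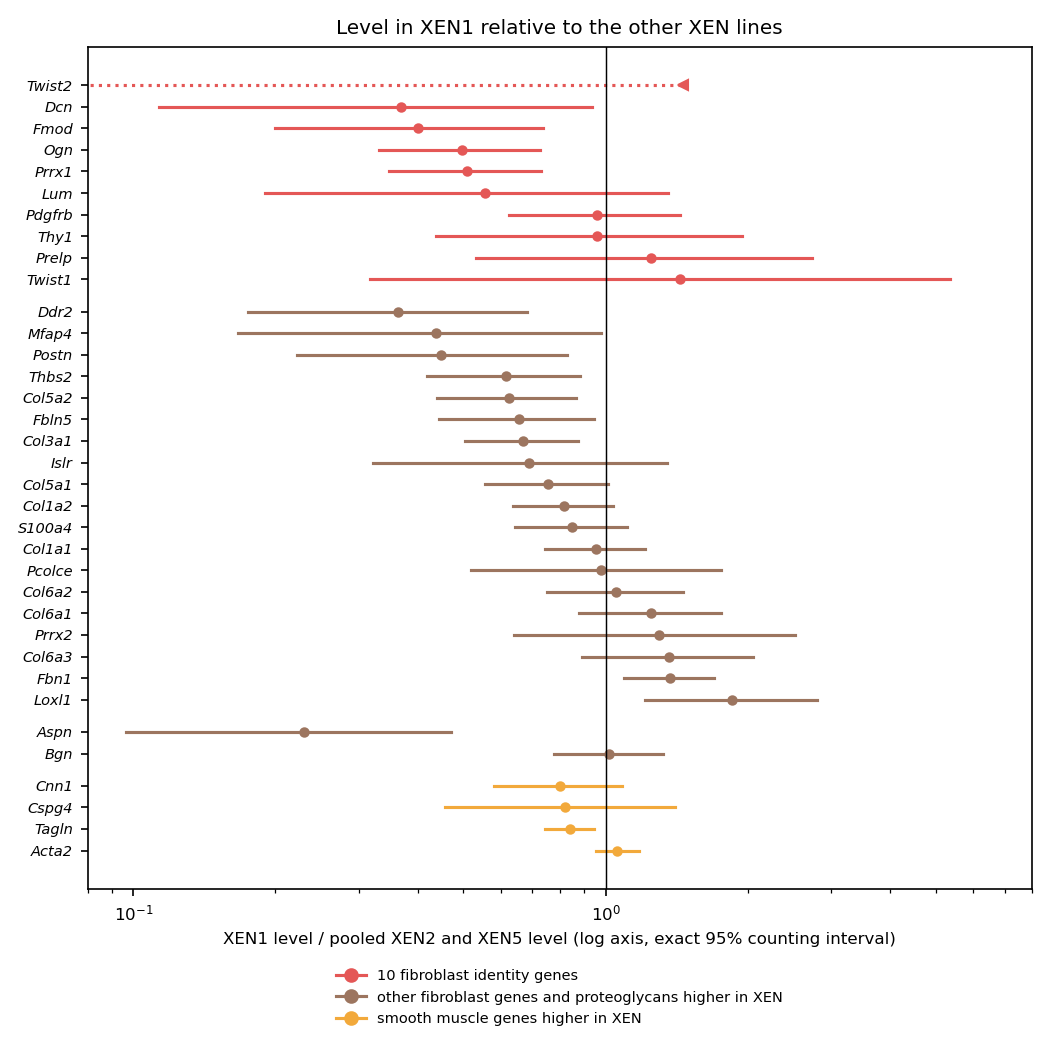
Ratio of the level in XEN1 to the pooled level in XEN2 and XEN5 (x axis, log scale, points) with exact 95% counting intervals (lines) for the 10 genes, other fibroblast and proteoglycan genes called higher in XEN, and smooth muscle genes called higher. Dcn, Fmod, Ogn, Prrx1 and Aspn lie left of 1 with their whole interval, Twist2 is an upper limit because XEN1 had 0 counts, and Thy1, Pdgfrb, Col1a1, Bgn and Acta2 lie close to 1.

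The genes whose pattern over the 8 mouse lines was most like the mean of the 8 tested members were sought among 7377 genes with at least 10 CPM in XEN. The 10 nearest were Serpinf1, Inhba, Lox, Pappa, Col3a1, Prss23, Wisp1, Col8a1, Tnfrsf11b and Col5a2, with Pearson's r of 0.993 to 0.997 on standardised log2 levels. Such r is set mostly by the gap between XEN and the other lines. Lox, the enzyme that crosslinks collagen, was the most abundant, with 479, 963 and 1329 counts in XEN1, XEN2 and XEN5 against 0 in pXEN and 1 in ES. Serpinf1, a secreted serpin, had 26, 47 and 59 against 1 and 3, and Inhba, an activin subunit, 25, 62 and 68 against 0 in both. All 10 were lowest in XEN1 by raw count, but XEN1 also had the fewest gene counts of the XEN lines. The 10 were chosen for likeness to members whose summed level was lowest in XEN1, so this is no separate result.

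In the rat XENP lines 1 of the 10 genes stood out. Fmod had 18 counts in CX1, 39 in MAX2, 22 in MAX3 and 10 in MAX8, which is 14.5, 36.1, 21.0 and 8.93 CPM of the gene counts without the ribosomal RNA precursor Rn45s. On that scale the mouse XEN lines had 7.18, 16.9 and 19.4 CPM of Fmod, and the pXEN lines, kept in the protocol of the rat lines, had 0 counts. Pdgfrb had 1 count in CX1 and the other 8 genes 0 counts in all 4 rat lines, as did 33.8% of all rat genes. A count of 0 over the 4 lines allows up to 0.668 CPM. Of the 24 further fibroblast genes with a rat row, 14 had 0 counts in all 4 lines, Col1a1 and Col1a2 among them, and 3 had at least 10 counts in each line: Pdgfra, Gsn and Mfap5 (the last 2 named after their values were seen). Mouse and rat were not tested against each other, since species, genome and annotation differ with the group.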

How the data were processed

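Strand-specific libraries of ribosome-depleted total RNA were sequenced as paired ends, per the labels' protocols. The authors deposited raw counts per gene, 1 table per line, with unstranded, same-strand and reverse-strand columns, per the values in the tables. The submitters' processing notes list CASAVA 1.8.2, Trimmomatic 0.33, STAR 2.5.1 and DESeq2, and as builds mm10 and rn6, with no roles. No source used here names the gene annotation. Column 4, the reverse strand, was analysed, which held 98.9% to 99.3% of stranded mouse counts. Rows for unmapped, multimapping, ambiguous and unassigned reads, 73.4% to 78.3% of mouse reads and 89.7% to 91.8% of rat reads, were left out. The ribosomal RNA precursor Rn45s made up 20.7% to 50.1% of the mouse gene counts and was kept in the tests.

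The 8 mouse libraries were fitted together with edgeR 4.0.16 (R 4.3.3): TMM scaling, filterByExpr with a minimum count of 10, glmQLFit (robust) and glmQLFTest, with Benjamini-Hochberg adjustment over the 10895 genes tested. A standard error is the absolute log2 fold change over the square root of F. The fit was checked on simulated counts with known folds. Count ratios carry exact 95% conditional intervals. Gene positions and exon lengths are from GENCODE vM21 (GRCm38), which may differ from the annotation used for counting. Rat symbols are those of the tables.

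Alternatives were DESeq2 1.42.0, other scalings, unstranded counts, no low-count filter, removal of Rn45s, fits of 2 groups and leaving out each mouse line. The 10 genes and the lists were chosen with earlier results of these data known. Other genes were named by rule: the 4 smallest p-values in XEN against pXEN per related list, up to 4 cell type markers with at least 10 counts in a XEN line, and the 10 nearest in pattern, from log2 of CPM plus 1.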

Additional observations from a re-analysis of the deposited data

Results flagged for a closer look

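Reads on the strand opposite to Ogn, which the comparisons did not use, numbered 26 over the 3 XEN lines, above 13 over the 3 pXEN lines. They numbered 15 over the 2 ES lines, and Cenpp is annotated on that strand.

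Pdgfrb in the rat lines had 0.805 CPM (1 count) in CX1 and 0 counts in the other 3, which sets CX1 apart by Dixon's test. With 0 counts in the other 3 lines that test flags any value above 0 whatever its size, so the flag from a single count carries no weight.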

How the results depend on the processing

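Over 15 alternatives (7 of method and 8 that each left out a mouse line), 213 refits of single members gave 203 with the same call, 9 that lost it, 1 that gained it and 0 of opposite sign. In 11 further cases a called member was not tested because it fell under the low-count filter, 5 for Dcn, 5 for Lum and 1 for Thy1, and these are not among the 213. Members called higher in XEN than in pXEN ranged from 4 to 8 with 1 line left out (4 without XEN5) and in XEN against ES from 3 (without ES3; 4 without ES2) to 7. Members called lower in pXEN than in ES numbered 2 with no low-count filter, Twist1 being added, and 0 in the fit of these groups alone, where Thy1 was not tested. With 1 line left out, all genes called higher ranged from 255 (without pXEN2) to 362 in XEN against pXEN, from 1277 (without ES2; 1463 without ES3) to 2158 in XEN against ES and from 1168 (without ES2) to 1818 in pXEN against ES, each below the full fit. Genes lower in XEN than in pXEN ranged from 63 (without XEN1) to 86 and numbered 155 with DESeq2. A lone ES line was assumed to vary as the other groups do. The other fibroblast genes called higher in XEN than in pXEN numbered 17 to 20 with 1 line left out. Upper-quartile scaling moved the median log2 fold change of all genes to -0.11 in XEN against ES and -0.13 in pXEN against ES, and dropping the low-count filter moved the latter to -0.15. The members called under upper-quartile scaling were those of the full fit. No paired analysis was possible because the mouse groups compared share 1 line number at most and the numbers mark separate lines.

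Depth limits the low members: with 33 to 44 counts over 3 XEN lines, Dcn, Lum, Prelp and Thy1 lie near the low-count filter, and Twist1 and Twist2 lie under it.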
